A study of Mus musculus with 32 samples.

Results

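The resting microRNA (miRNA) repertoire described here is that of the 4 vehicle-treated miRNA libraries among 16 miRNA libraries and 32 samples in all. The cells were primary hippocampal neurons taken from newborn (P0) mice and kept in culture for 16 days in vitro. They then received DMSO alone for 30 minutes, the vehicle given in place of forskolin or DHPG, so they define the state against which stimulation was measured. Only the columns of these 4 libraries were used, and no treated library entered any value. The sources used here do not give strain, genotype or the number of animals or dishes behind each library. The labelled cell type was checked against its markers: 14 of 15 neuron-enriched miRNAs were expressed, against 502 of all 1963 entries. Together the neuron-enriched miRNAs held 6.21% ± 0.70 of all miRNA counts (SD, n = 4). Most of that share was 1 miRNA, miR-128-3p, at 4.98%.

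A miRNA is cut from a hairpin precursor, and either arm of that hairpin, 5p or 3p, can be loaded into an Argonaute protein as the mature strand while the other arm is mostly lost. The loaded strand finds messenger RNAs mainly through its seed, the bases near its 5′ end, so miRNAs that share a seed form a family with overlapping targets. In neurons a part of the pool sits in dendrites, where it restrains local translation. The order of abundance therefore describes which seeds the cultures carried at rest.

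The table lists 1963 mature miRNA entries. The libraries DMSO 1, DMSO 2, DMSO 3 and DMSO 4 held 2844495, 4909062, 4464613 and 4804761 counts. Levels are given as CPM, counts after each library's miRNA total is scaled to 1000000, and 3 counts, taken as the floor of detection, correspond to 1.05, 0.61, 0.67 and 0.62 CPM in that order. An entry was called expressed when it had at least 10 counts in all 4 libraries. Of the 1963 entries, 502 were expressed and 699 had no count in any of the 4 libraries. DMSO 1 stood apart from the other libraries as well as being the shallowest. Across the 218 miRNAs of at least 100 CPM, the correlation of log2 CPM was 0.938 to 0.960 between DMSO 1 and each other library and 0.986 to 0.993 among DMSO 2 to 4, given as a description across miRNAs. Values in which DMSO 1 lies far out are therefore given for each library or with and without it.

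The sequences below are the leading members of the 10 most abundant seed families with close relatives, since the seed decides which of them are counted together. They are from RefSeq (GRCm38.p6), 5′ to 3′, with bases 2 to 8, the seed, in capitals.
let-7f-5p: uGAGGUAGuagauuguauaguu
let-7c-5p: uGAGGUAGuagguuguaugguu
let-7a-5p: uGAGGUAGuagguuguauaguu
let-7i-5p: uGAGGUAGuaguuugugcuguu
miR-181a-5p: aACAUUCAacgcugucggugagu
miR-181b-5p: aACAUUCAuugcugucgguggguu
miR-22-3p: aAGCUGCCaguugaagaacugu
miR-127-3p: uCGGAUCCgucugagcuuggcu
miR-9-5p: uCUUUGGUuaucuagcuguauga
miR-26a-5p: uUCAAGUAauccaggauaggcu
miR-128-3p: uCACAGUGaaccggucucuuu
miR-30a-5p: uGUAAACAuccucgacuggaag
miR-30e-5p: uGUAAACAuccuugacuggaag
miR-92b-3p: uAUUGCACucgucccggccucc
miR-92a-3p: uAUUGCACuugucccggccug
miR-434-3p: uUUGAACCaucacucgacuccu
The 4 let-7 members printed carry 1 seed, as do the 2 members printed each for miR-181, miR-30 and miR-92, while miR-22-3p, miR-127-3p, miR-9-5p, miR-128-3p and miR-434-3p were each the only expressed matched entry with their seed. Of the 1963 entries, 1674 matched a RefSeq mature sequence, and these held 93.4 to 95.3% of the counts of a library.

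miR-181a-5p was the most abundant miRNA on average, at 103337, 103462, 100687 and 118791 CPM in DMSO 1 to 4 (106569 ± 8248, SD, n = 4). It is a brain-expressed miRNA known to act on AMPA receptor subunits. DMSO 4 was the highest and the other 3 libraries lay close together. RefSeq places its mature sequence at chr1:137966468-137966490 (+) and at chr2:38852741-38852763 (+), the latter within the spans of Nr6a1 and Nr6a1os, and the counts do not separate these loci.

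miR-22-3p was second on average at 69066, 75815, 72364 and 72600 CPM (72461 ± 2757). It is a widely expressed miRNA made from an exon of a non-coding host gene, and it lies at chr11:75463772-75463793 (+) within the span of Mir22hg. Its libraries differed little, with a coefficient of variation (CV, the SD as a percentage of the mean) of 3.80%.

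miR-127-3p held rank 3 on average, and its rank depended on 1 library. It read 119975 CPM in DMSO 1, where it ranked first, and 39641, 56578 and 48510 CPM in DMSO 2 to 4, where it ranked 9, 5 and 7. Its mean was 66176 ± 36527 CPM with all 4 libraries and 48243 ± 8472 CPM, rank 7, without DMSO 1. It is an imprinted miRNA of the Dlk1-Dio3 locus at chr12:109592888-109592909 (+), inside the span of Rtl1, whose transcript it opposes.

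miR-9-5p, needed for neural progenitor maturation and kept in neurons, read 55926, 68946, 70902 and 67489 CPM (65816 ± 6740), with DMSO 1 the lowest. Its sequence is at 3 loci, on chromosomes 3, 7 and 13, each inside the span of a long non-coding RNA (Gm3764, Mir9-3hg and C130071C03Rik). let-7f-5p, of the let-7 family that marks differentiated cells, followed at 47985, 59839, 47296 and 49216 CPM, with DMSO 2 above the rest. miR-128-3p, the leading member of the neuron-enriched list, read 53032, 40273, 54930 and 50859 CPM, with DMSO 2 the lowest. It has a locus within each of R3hdm1 and Arpp21.

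The next leading miRNAs were miR-26a-5p at 49112 ± 6336 CPM, which lies within Ctdspl and Ctdsp2, and let-7c-5p at 44856 ± 6063 CPM. miR-92b-3p, a brain-expressed relative of miR-92a, read 21638, 46165, 41803 and 32080 CPM, so that DMSO 1 was the lowest and DMSO 2 more than 2-fold above it. miR-434-3p, another miRNA of the Dlk1-Dio3 locus, stood at 29435 ± 3525 CPM and completed the leading 10. Ranks 11 to 20 were held by miR-30a-5p, miR-27b-3p, miR-30d-5p, miR-191-5p, miR-125b-5p, miR-30e-5p, let-7i-5p, let-7a-5p, miR-541-5p and miR-181b-5p, from 27616 ± 5375 down to 10288 ± 1122 CPM.

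Most neighbours in this order could not be separated. Of the 20 neighbouring pairs from rank 1 to rank 21, 4 stood in the same order in all 4 libraries: miR-181a-5p above miR-22-3p, miR-9-5p above let-7f-5p, miR-30a-5p above miR-27b-3p, and let-7i-5p above let-7a-5p. The other 16 pairs changed order between libraries. Membership was steadier than order: 18, 18, 19 and 20 of the 20 were also among the leading 20 of DMSO 1 to 4, and all 20 stayed when DMSO 1 was left out. A level of one miRNA against another also carries any difference in how readily each sequence enters a library, which was not tested.

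**Figure D1:**
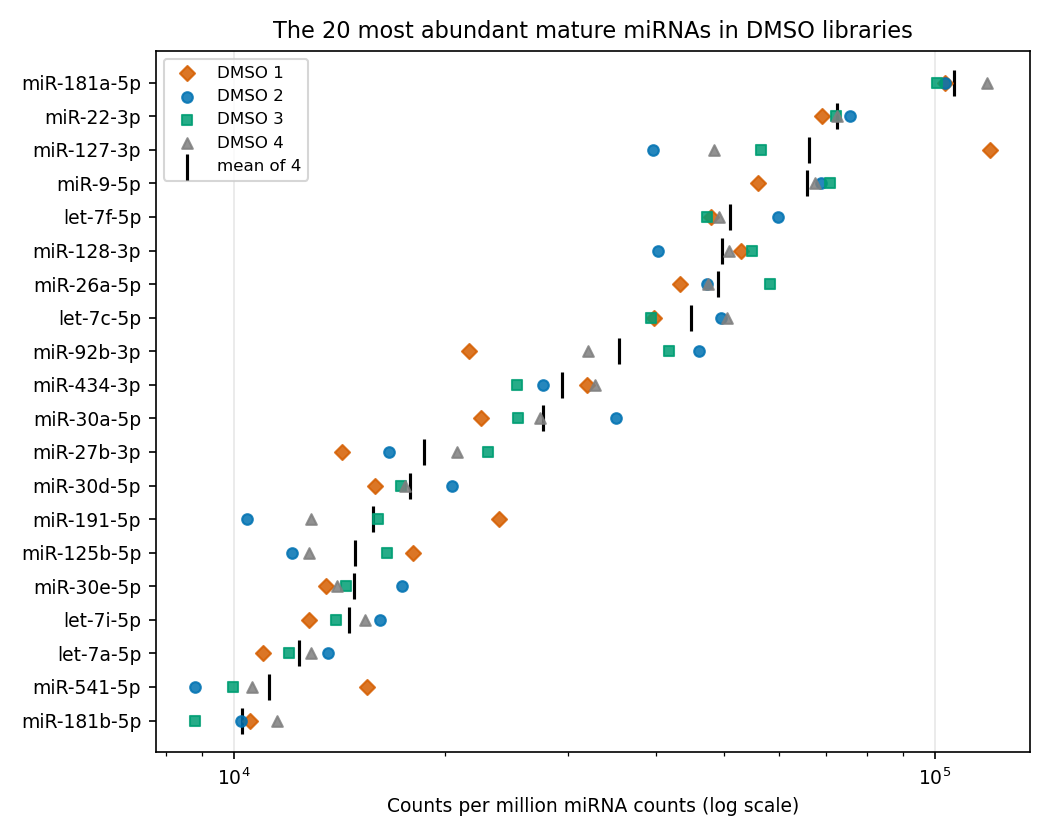
Level of the 20 most abundant miRNAs in each vehicle library, in CPM on a log axis, 1 point per library and a bar mark for the mean of 4. The libraries overlap between most neighbours, and miR-127-3p of DMSO 1 (119975 CPM) lies far from its other 3 values (39641 to 56578 CPM).

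The pool was concentrated in few miRNAs. miR-181a-5p alone held 10.7% ± 0.82 of all counts, the leading 10 held 57.1% ± 1.14 and the leading 100 held 95.4% ± 0.14. On the mean, 8 miRNAs were enough for 50% of counts and 56 for 90%. By library, 50% was reached with 8, 9, 8 and 8 miRNAs and 90% with 51, 57, 57 and 57, so DMSO 1 was somewhat more concentrated. Across all 502 expressed entries the median level was 68.8 CPM, 1548-fold below miR-181a-5p.

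Grouped by seed, let-7 overtook miR-181. The let-7 family, with 9 of its 11 matched members expressed, held 13.0, 16.3, 13.3 and 15.2% of counts in DMSO 1 to 4 (14.5% ± 1.54). Its leading member let-7f-5p made up 35.3% of the family, so this family was spread over several members. The wider list of both arms of let-7 and miR-98, 19 of 20 expressed, held 14.6% ± 1.55. The miR-181 family, with 4 of 4 members expressed, held 12.2, 12.6, 11.9 and 14.2% (12.7% ± 0.997), and 83.7% of it was miR-181a-5p. In each of the 4 libraries let-7 was the larger of the pair.

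The miR-22-3p, miR-127-3p and miR-9-5p families followed at 7.25% ± 0.28, 6.62% ± 3.65 and 6.58% ± 0.67, each with 1 matched member. Without DMSO 1 the miR-127-3p family held 4.82%. The miR-26 family, whose 2 members restrain regulators of growth and chromatin, held 5.08% ± 0.65, and miR-128-3p held 4.98% ± 0.65. The miR-30 family held 4.92% ± 0.71 from 4 matched members, and 6.78% ± 0.92 when miR-30d-5p and miR-30b-5p were placed with it by name, a choice made after seeing the data. The miR-92 family (miR-92b-3p, miR-92a-3p and miR-25-3p) held 4.07% ± 1.16, and miR-434-3p 2.94% ± 0.35.

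The 10 leading families summed to 69.6% ± 0.64 of counts, between 68.8 and 70.1% in the 4 libraries. Their sum varied less than several of the families themselves. In all, 372 seeds had an expressed member, and 43 of these had more than 1.

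**Figure D2:**
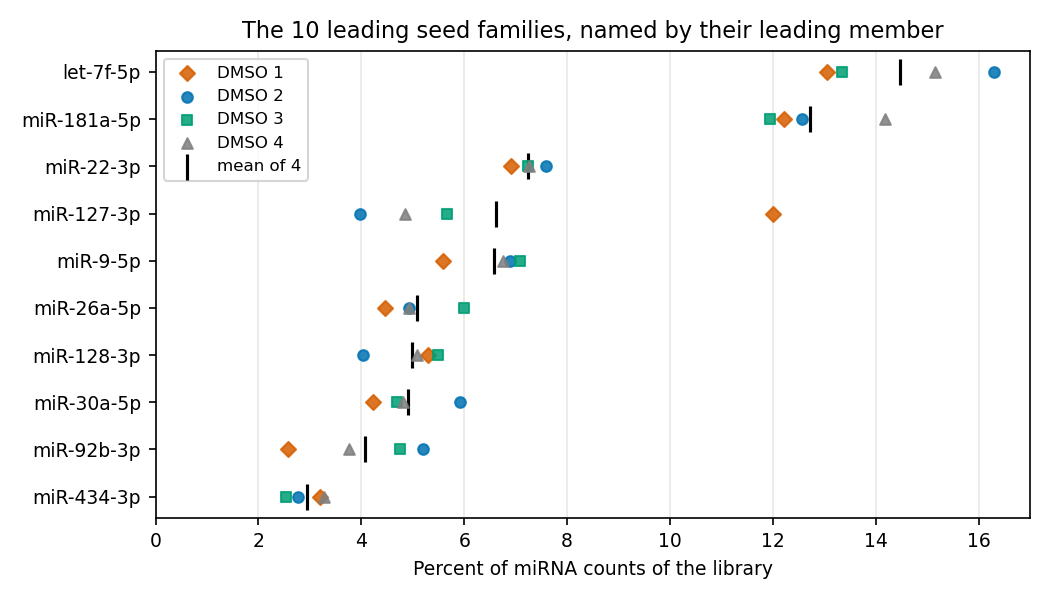
Share of all miRNA counts held by the 10 leading seed families (bases 2 to 8), in percent, 1 point per library and a bar mark for the mean of 4. The let-7 family (14.5%) and the miR-181 family (12.7%) lead, and the miR-127-3p family shows the widest spread (6.62% ± 3.65).

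Close relatives set a limit on single members. Among the 9 expressed let-7 family members, 4 of 36 pairs differ at 1 base. Counting positions from 1 at the 5′ end, with the first-named member's base first, these are A12G between let-7f-5p and let-7a-5p, G19A between let-7c-5p and let-7a-5p, A17G between let-7c-5p and let-7b-5p, and U9G between let-7a-5p and let-7e-5p. Among matched expressed entries, 25 lie within 1 difference of another and held 20.3% of counts on average. The split of counts between such members is uncertain, whereas a family's sum does not depend on it where both carry the same seed.

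A first uridine (U), the base that the Argonaute pocket is known to favour, was commoner among the leading miRNAs, as a description with no test. It was found in 41.0% of all 1674 matched entries, in 40.7% of 442 matched expressed entries, in 47.4% of the 194 of at least 100 CPM and in 14 of the 19 matched entries among the leading 20. By counts, entries that begin with U held 65.1% ± 0.91 of the matched pool, those with A 27.5% ± 1.12, those with C 5.08% ± 0.57 and those with G 2.31% ± 0.13. miR-181a-5p and miR-22-3p, the 2 leaders, both begin with A.

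Chromosome 12 held the largest share of counts among entries with loci on 1 chromosome only, 16.1% ± 4.29, and 14.0% without DMSO 1. A further 34 entries with loci on more than 1 chromosome held 42.2% ± 1.73 and were left out, so chromosomes cannot be ranked over all counts. The share of chromosome 12 came from the imprinted Dlk1-Dio3 locus, whose miRNAs are expressed from the maternal chromosome. Of the locus's 109 listed mature arms, 79 were expressed, 35 from 5p arms and 44 from 3p arms, while 9 were at 0 in all 4 libraries. Hairpins lying at most 10 kb apart formed 2 groups there. One of 14 hairpins, chr12:109563692-109595388 (+), held 16.5, 7.99, 9.53 and 9.50% of counts, and another of 36 hairpins, chr12:109709060-109747960 (+), held 5.41, 4.34, 4.48 and 4.84%.

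The whole Dlk1-Dio3 list held 22.5, 12.8, 14.5 and 14.9% of counts in DMSO 1 to 4, a mean of 16.2% ± 4.30, and 14.1% ± 1.09 without DMSO 1. With miR-127-3p taken out, the list held 9.57% ± 0.84 and ranged from 8.85 to 10.5%. After miR-127-3p and miR-434-3p its leading members were miR-541-5p at 11233 ± 2932 CPM, miR-411-5p at 10050 ± 923 CPM and miR-410-3p at 6458 ± 1756 CPM. DMSO 1 was the highest library for 37 of the 79 expressed members and the lowest for 18. Over the 218 miRNAs of at least 100 CPM, a stricter minimum, it was the highest for 65 and the lowest for 104. In the locus DMSO 1 was thus more often highest than lowest, the reverse of that wider set. Even so, the members did not all shift the same way. miR-410-3p read 9055 CPM in DMSO 1 against a mean of 5592 CPM in the others, whereas miR-381-3p read 2655 CPM against 5735 CPM.

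The other abundant arms of the same group of 14 hairpins differed in which library was highest. The 5p arm of the same hairpin, miR-127-5p, read 435, 571, 534 and 680 CPM, with DMSO 1 the lowest. miR-434-3p read 31940, 27648, 25365 and 32789 CPM, with DMSO 1 inside the range of the others. DMSO 1 was the highest library for miR-434-5p, at 5463 CPM against 3982 to 4686 CPM, and for miR-433-3p, at 1461 CPM against 1012 to 1167 CPM. It was the lowest for miR-136-3p, at 2713 CPM against 4129 to 4427 CPM. None of these lay as far from the other libraries as miR-127-3p, which was 2.49-fold above their mean in DMSO 1.

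Neuronal miRNAs spanned a wide range of levels. miR-128-3p made up most of the neuron-enriched list, followed by miR-138-5p, which limits dendritic spine growth, at 3391, 3762, 3625 and 4281 CPM. miR-124-3p, the classic neuronal miRNA that represses the splicing factor Ptbp1, read 2639, 2429, 3344 and 3030 CPM (2860 ± 407) and ranked 48. It was thus far below miR-128-3p in each library. miR-218-5p, another neuronal miRNA, read 1122, 1702, 1783 and 1758 CPM with DMSO 1 below the other 3, and miR-137-3p, linked to synaptic genes, stood at 227 ± 47.3 CPM.

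Activity-regulated miRNAs were present without forskolin or DHPG. Of 21 listed, 20 were expressed, and together they held 20.97% ± 0.999 of counts, about as much in each library (19.5 to 21.6%). Most of that was miR-181a-5p and miR-26a-5p. miR-132-3p, induced by CREB and known to promote dendrite growth, read 2020, 1436, 1868 and 1843 CPM, and miR-212-3p, made from the same transcript with the same seed, read 348, 316, 375 and 347 CPM. miR-134-5p, a dendritic regulator of Limk1, stood at 262 ± 25.0 CPM. The pair is shown here because a shared seed did not bring a shared level.
miR-132-3p: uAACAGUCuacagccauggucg
miR-212-3p: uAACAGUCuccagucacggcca

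Markers of other cell types were mostly low. The oligodendrocyte list held 0.053% ± 0.009 of counts, led by miR-23a-3p at 266 ± 54.1 CPM and miR-338-3p at 190 ± 25.3 CPM, while miR-219a-5p, the defining marker of that lineage, stood at 7.77 ± 2.76 CPM. The endothelial list held 0.045% ± 0.008, led by miR-126a-5p at 384 ± 80.7 CPM and miR-126a-3p at 70.1 ± 3.30 CPM. The muscle list held 0.009% ± 0.004, led by miR-133a-3p at 82.8 ± 43.6 CPM, with miR-208b-3p at 1.698 ± 0.588 CPM. Of 10 pluripotent-cell miRNAs none was expressed, 8 were at 0, and miR-295-3p and miR-302d-3p each had a trace in 1 library.

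The microglia and blood list held 0.342% ± 0.045, yet its defining members were near 0. miR-486a-5p made up most of it at 3114 ± 429 CPM, with miR-146a-5p at 279 ± 38.4 CPM. miR-451a, carried by red cells, stood at 0.69 ± 0.71 CPM, miR-223-3p of myeloid cells at 0.49 ± 0.85 CPM and miR-142a-3p of all blood cells at 0.43 ± 0.51 CPM. The neural list of miR-9-5p and miR-9-3p, shared by progenitors, glia and neurons, held 6.70% ± 0.67, so neurons and glia were not separated by it. In such bulk samples fewer cells of a type and less RNA per cell cannot be told apart.

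A group of miRNAs typical of ciliated and choroid plexus epithelium was abundant and uneven. The epithelium and choroid plexus list held 0.700, 2.46, 1.51 and 1.42% of counts in DMSO 1 to 4 (1.52% ± 0.72, and 1.80% ± 0.58 without DMSO 1). miR-34c-5p read 1733, 13473, 7577 and 7785 CPM and miR-449a-5p 191, 2842, 1317 and 1441 CPM, so DMSO 1 was lowest and DMSO 2 highest for both. miR-204-5p, the choroid plexus and pigment epithelium miRNA, read 5031, 8052, 6084 and 4783 CPM, with DMSO 2 again highest but DMSO 4 lowest. The miR-200 family of general epithelium was near the floor, with miR-200b-3p at 1.34 ± 0.29 CPM and miR-141-3p at 2.06 ± 0.89 CPM.

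Below are 3 matched members of the miR-34 and miR-449 seed family, shown because they come from separate chromosomes (13, 4 and 9) and carry 1 seed, and each was lowest in DMSO 1 and highest in DMSO 2.
miR-449a-5p: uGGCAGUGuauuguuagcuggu
miR-34a-5p: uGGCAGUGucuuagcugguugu
miR-34b-5p: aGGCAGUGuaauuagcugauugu
miR-34a-5p read 57.0, 164, 148 and 128 CPM and miR-34b-5p 22.1, 218, 121 and 117 CPM. miR-34c-5p had the same lowest and highest library. The mean of DMSO 2 to 4 exceeded DMSO 1 by 9.78-fold for miR-449a-5p, 6.86-fold for miR-34b-5p, 5.55-fold for miR-34c-5p and 2.57-fold for miR-34a-5p.

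Mural and fibroblast markers were also lowest in DMSO 1 and highest in DMSO 2. That list held 0.041, 0.259, 0.125 and 0.103% of counts (0.132% ± 0.092, and 0.162% ± 0.085 without DMSO 1), with 3 of 12 members expressed. miR-143-3p, of smooth muscle and fibroblasts, read 339, 2223, 1035 and 854 CPM, and miR-199a-3p read 51.0, 325, 158 and 138 CPM. miR-145a-5p, made from the same transcript as miR-143, stood at only 3.17 ± 2.02 CPM and miR-145b was at 0. miR-375-3p, an endocrine miRNA, was likewise lowest in DMSO 1 and highest in DMSO 2, at 293, 2382, 1533 and 1348 CPM. It led the liver and pancreas list, which held 0.139% ± 0.086 (0.176% ± 0.055 without DMSO 1), while the liver marker miR-122-5p stood at 0.79 ± 0.59 CPM. What part cell makeup had in these differences between libraries was not tested.

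The miR-183 cluster, known from sensory organs and retina, ran the other way. Its 3 hairpins lie on chromosome 6 (−), and their 5p sequences are printed because their seeds differ from one another while their highest and lowest libraries were the same.
miR-182-5p: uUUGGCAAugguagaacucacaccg
miR-183-5p: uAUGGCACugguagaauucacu
miR-96-5p: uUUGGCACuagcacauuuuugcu
miR-182-5p read 6180, 767, 1717 and 1799 CPM, miR-183-5p 1297, 89.6, 298 and 244 CPM and miR-96-5p 17.2, 1.63, 3.81 and 5.62 CPM. All 3 were highest in DMSO 1 and lowest in DMSO 2. The cluster's list held 0.750% of counts in DMSO 1 and 0.086 to 0.205% in the others, so its mean of 0.311% ± 0.298 fell to 0.164% ± 0.068 without DMSO 1.

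The miR-17 to miR-92a group and its paralogs, named for their part in proliferation, held 0.667% ± 0.112, with DMSO 1 the lowest at 0.4998%. It was led by miR-92a-3p at 4058 ± 573 CPM and miR-25-3p at 1214 ± 218 CPM. The miR-23, miR-27 and miR-24 group held 2.06% ± 0.425, nearly all of it miR-27b-3p at 18708 ± 3955 CPM, ahead of miR-23b-3p at 802 ± 174 CPM.

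**Figure D3:**
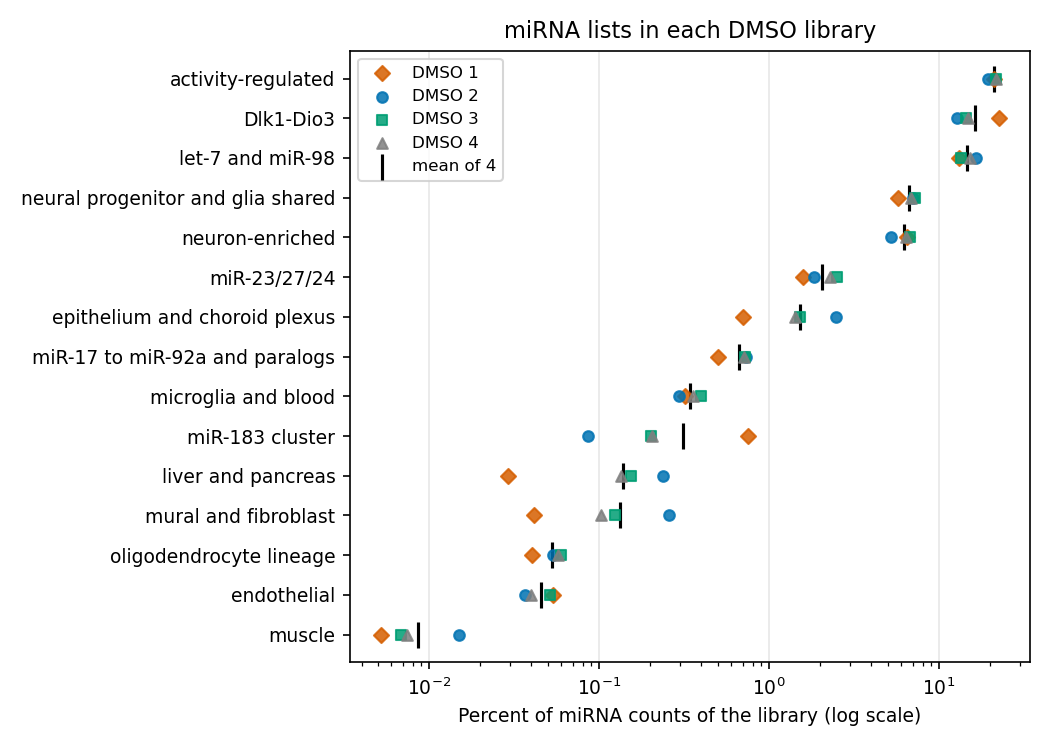
Share of all miRNA counts held by each marker or cluster list, in percent on a log axis, 1 point per vehicle library. The neuron-enriched, neural progenitor and glia shared, activity-regulated, let-7 and Dlk1-Dio3 lists lie above 5% in all 4 libraries. The miR-183, liver and pancreas, and mural and fibroblast lists are spread widest in ratio among those drawn.

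Differences between libraries exceeded counting error for almost every abundant miRNA. Over the 218 miRNAs of at least 100 CPM the median CV was 16.3%, against 1.88% from counting error alone, and the CV was above its counting value in 216. The median CV of the same miRNAs was 10.5% without DMSO 1. The biological coefficient of variation from edgeR was 0.258, and 0.165 without DMSO 1.

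DMSO 1 lay at an end of most wide ranges. It was the highest library for 65 of the 218 and the lowest for 104, so it was at an end for 77.5% of them, against 51.4, 36.2 and 34.9% for DMSO 2, DMSO 3 and DMSO 4. Lowest and highest library differed at least 2-fold for 36 miRNAs, with DMSO 1 at an end for 35 of them, and for 6 when DMSO 1 was left out. At least 2-fold above all other libraries in DMSO 1 were miR-127-3p, miR-182-5p, miR-666-5p, miR-6240, miR-183-5p and miR-488-5p. A further 12 were at least 2-fold below all others there, among them miR-34c-5p, miR-449a-5p, miR-375-3p, miR-143-3p, miR-27a-3p and miR-322-5p.

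The 8 largest CVs belonged to miR-183-5p (114%), miR-182-5p (92.6%), miR-210-3p (91.1%), miR-488-5p (80.4%), miR-6240 (76.7%), miR-449a-5p (75.1%), miR-143-3p (71.6%) and miR-199a-3p (68.1%). Leaving out DMSO 1 lowered all of these but that of miR-210-3p. Most still stayed far above the median CV without DMSO 1, which was 10.5%. Without DMSO 1 the CV was 9.83% for miR-488-5p, 19.7% for miR-6240, 40.2% for miR-182-5p, 45.4% for miR-449a-5p and 51.4% for miR-183-5p. It was 54.2% for miR-143-3p and 49.6% for miR-199a-3p, which were highest in DMSO 2. miR-210-3p kept a CV of 96.4%.

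miR-210-3p, the hypoxia-induced miRNA, differed from the rest in that DMSO 3 stood out, at 65.0, 43.8, 238 and 56.4 CPM. miR-488-5p read 284 CPM in DMSO 1 and 72.4 to 85.8 CPM elsewhere, and miR-6240 read 2277 CPM in DMSO 1 and 530 to 789 CPM elsewhere.

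The steadiest miRNA was miR-187-3p at 442, 461, 463 and 457 CPM, a CV of 2.10%. It was followed by miR-181d-5p (2.50%), miR-487b-3p (3.51%), miR-1198-5p (3.54%), miR-369-5p (3.65%), miR-337-5p (3.68%), miR-22-3p (3.80%) and miR-125b-1-3p (4.27%). miR-487b-3p, miR-369-5p and miR-337-5p come from the Dlk1-Dio3 locus, so the locus held both a very uneven miRNA and several of the steadiest ones.

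**Figure D4:**
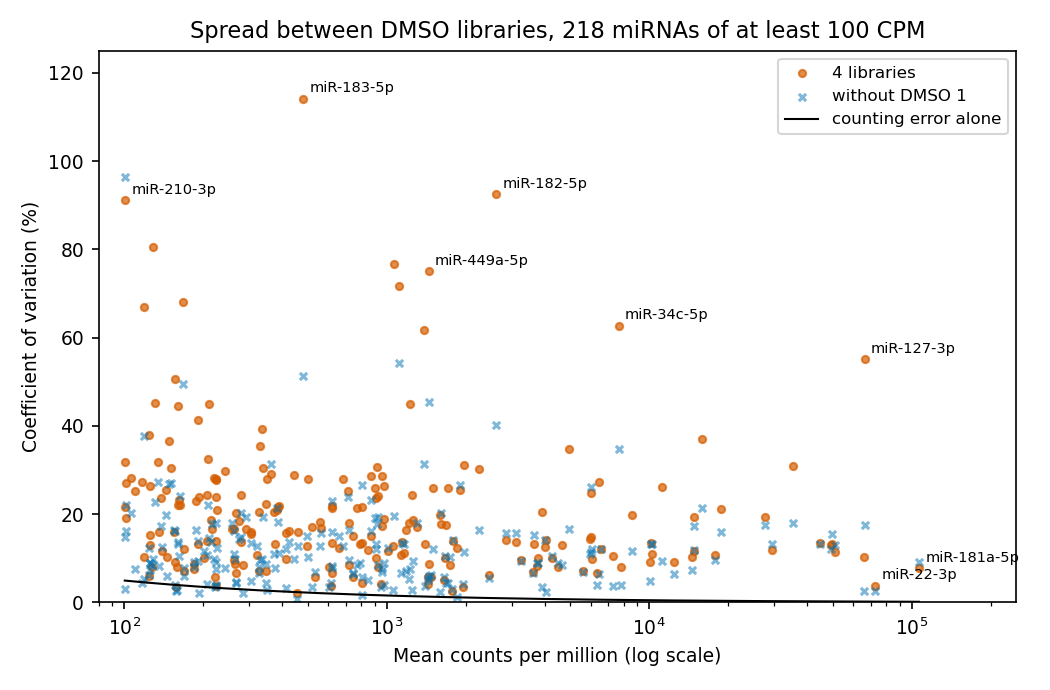
Coefficient of variation over the 4 vehicle libraries, in percent, against mean level in CPM on a log axis, for each miRNA of at least 100 CPM, with dots for 4 libraries, crosses without DMSO 1 and a line for counting error alone. With 4 libraries most miRNAs lie under 20% (132 of 218), and miR-183-5p, miR-182-5p and miR-210-3p lie above 90%.

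Both arms of a hairpin were in the table for 788 hairpins, and 315 had at least 10 counts over both arms in each library. The arms were compared within libraries with the edgeR quasi-likelihood F test, adjusted by the Benjamini-Hochberg method over the 315. The 5p arm was higher for 139 (44.1% of those tested) and the 3p arm for 160 (50.8%), and 16 did not pass the limit of 0.05. The same arm was the higher in 4 of 4 libraries for 302 hairpins. P-values measure the spread between these libraries, which may be technical.

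Arm choice was steep. The higher arm exceeded the lower at least 10-fold for 190 hairpins (60.3%) and at least 100-fold for 82, and 27 lay under 2-fold. The median ratio was 16.5-fold. In 123 hairpins an arm had fewer than 3 counts in at least 1 library and was set to 3 counts there, which understates the ratio. Some lower arms were themselves abundant, such as miR-434-5p at 0.467% ± 0.061 and miR-151-5p at 0.363% ± 0.048 of all counts. By counts the 5p arms of the tested pairs held 61.4% ± 2.35 of the total and their 3p arms 38.1% ± 2.26. The larger number of hairpins with 3p higher was not seen among abundant ones: of 183 hairpins with at least 100 CPM over both arms, 5p was higher for 88, 3p for 84, and 11 did not pass.

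The steepest 5p choices are given as the log2 ratio of 5p over 3p, mean ± SD over 4 libraries. miR-541, of the Dlk1-Dio3 locus, stood at 12.64 ± 0.72, with its 3p arm at 1.76, 0.81, 2.24 and 2.71 CPM beside a 5p arm of 8823 to 15485 CPM. miR-26a stood at 12.51 ± 0.35 and miR-204 at 12.37 ± 0.53, the latter with 3p counts near the floor. miR-186 followed at 12.01 ± 0.70, miR-298 at 11.58 ± 0.43 and miR-182 at 11.41 ± 0.91, where the 3p arm was at or below 3 counts in each library.

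The steepest 3p choices, with negative log2 ratios, were led by miR-92b at -12.55 ± 0.56. Its 5p arm read 4.92, 7.54, 4.03 and 6.87 CPM beside 21638 to 46165 CPM for the 3p arm. miR-103, with its 5p arm near the floor, stood at -12.35 ± 0.48 and miR-22 at -11.10 ± 0.23, the last with a measurable 5p arm of 25.0 to 38.1 CPM. miR-328 at -10.96 ± 0.41, miR-375 at -10.57 ± 1.68 and miR-6944 at -10.44 ± 0.29 had 5p arms under 3 counts, so these depend on the floor and on depth.

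The most balanced hairpins were miR-324 at 0.02 ± 0.42 (adjusted p = 0.92, edgeR), miR-770 at -0.07 ± 0.08 (adjusted p = 0.74, edgeR) and miR-129 at 0.08 ± 0.31 (adjusted p = 0.63, edgeR), with miR-1981 at -0.21 ± 0.30 and miR-106b at -0.22 ± 0.39 (both adjusted p = 0.35, edgeR). miR-770 showed the tightest balance, at 136, 116, 107 and 118 CPM for 5p and 146, 113, 112 and 131 CPM for 3p. miR-129, a neuronal miRNA that limits a potassium channel, was the most abundant of the 5, at 954 ± 40.9 CPM for 5p and 923 ± 237 CPM for 3p summed over its hairpins. A p that misses the limit does not show that the arms were equal.

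miR-673 also missed the limit (adjusted p = 0.094, edgeR), although its mean log2 ratio was -5.25 ± 3.28. Its 3p arm read 93.2, 122, 84.0 and 93.2 CPM, while its 5p arm was at 0 in DMSO 1, DMSO 3 and DMSO 4 and at 96.4 CPM in DMSO 2. It was named after its values were seen.

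Among the leading and neuronal miRNAs the same arm was the higher in 4 of 4 libraries for each of those named next, while the size of the ratio varied more for some than for others. Over all 315 hairpins the median SD of the log2 ratio was 0.41. miR-181a favoured 5p by 6.57 ± 0.02 and let-7c by 10.78 ± 0.09, both with little spread. miR-9, both arms of which are used in neural cells, favoured 5p by 5.82 ± 0.25, with 1167 ± 132 CPM left on 3p. miR-138 and miR-218 favoured 5p by 6.03 ± 0.19 and 5.82 ± 0.41, and miR-134 by 3.27 ± 0.27.

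On the 3p side stood miR-128 at -9.43 ± 0.17, and, with spreads above that median, miR-124 at -6.97 ± 0.46 and miR-137 at -4.39 ± 0.66. miR-127 stood at -8.11, -6.12, -6.73 and -6.16 in DMSO 1 to 4, so its arm ratio was also farthest out in DMSO 1. miR-434 lay at -2.66 ± 0.20, a far milder choice than its neighbour.

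miR-132 and miR-212, made from 1 transcript, differed in arm choice. miR-132 favoured 3p at -3.27 ± 0.22, from -3.57 to -3.06 over the 4 libraries. miR-212 stood at -0.26 ± 0.16, from -0.40 to -0.12, and did not pass (adjusted p = 0.18, edgeR), although 3p was higher in 4 of 4 libraries. The 2 ranges did not overlap. The difference between the hairpins itself was not tested.

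Hairpins of 1 family mostly shared an arm. Of 31 miRNA numbers with more than 1 hairpin tested, 25 had all hairpins called for the same arm, among them let-7 (8 of 8, 5p), miR-30 (5 of 5, 5p), miR-344 (5 of 5, 3p), miR-181 (4 of 4, 5p) and miR-29 (3 of 3, 3p). 3 had calls for both arms: miR-34, miR-374 and miR-7. Over all 315 hairpins, 44.1% were called for 5p and 50.8% for 3p. Members within 1 difference of another occur in let-7, miR-30, miR-181 and miR-29, so calls within these groups are not independent. miR-7a favoured 3p (-1.27 ± 0.34) and miR-7b 5p (1.08 ± 0.32). Their 5p arms differ at 1 base, so the split of 5p counts between miR-7a and miR-7b is uncertain. The opposite calls of miR-7a and miR-7b depend on that split. In the miR-34 group, miR-34a and miR-34c favoured 5p (6.97 ± 1.09 and 6.90 ± 0.40) and miR-34b weakly 3p (-0.54 ± 0.38).

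In the Dlk1-Dio3 list, 49 hairpins were tested, with 5p higher for 15, 3p higher for 29 and 5 not passing, a median log2 ratio of -2.11. The same shares over all 315 were 44.1% and 50.8%. Both arms reached at least 1000 CPM for 6 hairpins only, let-7d, miR-125b, miR-151, miR-181a, miR-434 and miR-9, and at least 100 CPM for 35. For miR-125b and miR-181a the 3p level is a sum of arms numbered by hairpin. miR-125b-1-3p and miR-125b-2-3p each passed 1000 CPM alone, at 1441 and 1448 CPM. miR-181a-1-3p alone stood at 907 CPM, so miR-181a passed only as a sum. The hairpins counted here are those for which both arms are present in quantity, with numbered arms summed.

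The higher arm tended to carry a first U. Of 246 called hairpins with both arm sequences, the higher arm began with U in 131 and the lower arm in 48. Where only 1 of the arms began with U, the higher arm had it in 108 of 133 hairpins. This is a description across hairpins, which are not independent replicates.

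**Figure D5:**
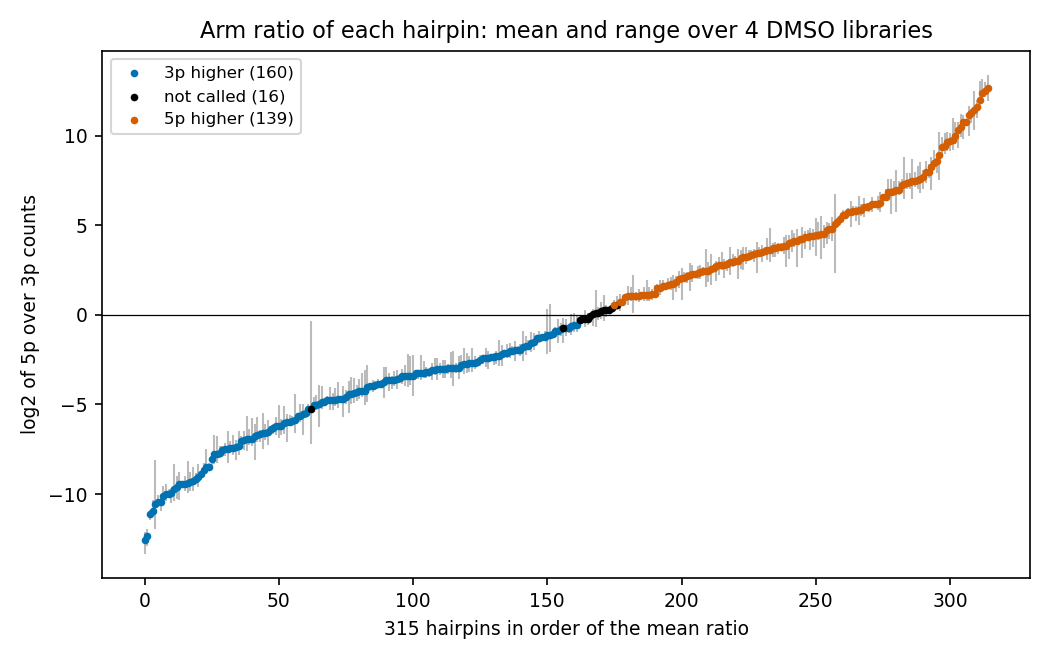
Log2 ratio of the 5p over the 3p arm for each of the 315 hairpins tested, in order of the mean ratio, with the mean as a point and the lowest to highest library as a line. The 3p arm was higher for 160 (left), the 5p arm for 139 (right), and the 16 not called lie near 0 apart from miR-673 at -5.25.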

How the data were processed

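RNA was extracted with Trizol and chloroform, per the labels' protocols. The labels carry TruSeq Stranded Total RNA text for the miRNA samples too, and the small RNA kit is not given in the sources used here. The deposited values are estimated counts, made by the authors with Salmon against GRCm38 per the submitters' processing notes, which also name DESeq; their versions are not stated. The table names its control columns differently from the labels, and each was taken as the DMSO library of the same number. Of the deposited DMSO values 3.59% are not whole (tolerance 0.0015), and these hold 13.5 to 23.6% of counts.

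CPM are counts scaled to a library total of 1000000, without length scaling, and intervals for depth cover counting error only. Counts were rounded for the arm test, an edgeR 4.0.16 quasi-likelihood F test (R 4.3.3) with library and arm as terms, in which both arms had the same library total. Arms shared by several hairpins were summed. Arms under 3 counts were set to 3 counts for the ratios printed. limma 3.58.1 and DESeq2 1.42.0 were alternatives, with other count minimums, scalings, pooled counts, seeds of bases 2 to 7, and each library left out. On simulated data for the 315 hairpins, 95.5% of 2-fold and 100% of 4-fold arm differences were recovered. The simulated spread was a fixed setting, not estimated from these libraries, and no simulated ratio exceeded 4-fold. These rates therefore need not hold for the deposited counts.

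Sequences and loci are from RefSeq (GRCm38.p6), and gene spans were matched without strand. Named miRNAs are the 20 most abundant, the 10 leading seed families, the 6 steepest hairpins each way and the 5 nearest 0, the 8 largest and 8 smallest CVs, the leading 2 of each list and a fixed neuronal group. Others were named after their values were seen, to describe a list, a family or a library. The members and lists were chosen with earlier results of these data known. The labels do not say whether the libraries are separate cultures or animals.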

Additional observations from a re-analysis of the deposited data

Results flagged for a closer look

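In 10 of 111 results examined, 1 library lay farther from the other 3 than Dixon's 95% limit for 4 samples. For a group not picked by its spread, chance passes this limit in about 1 in 20 cases. That rate does not hold for the whole set, since the results examined include the 8 miRNAs of largest and the 8 of smallest CV, and miR-488-5p, miR-6240 and miR-210-3p are among the former. DMSO 1 was that library in 7 of the 10. In DMSO 1, miR-488-5p was high at 284 CPM (others 72.4 to 85.8) and miR-6240 was high at 2277 CPM (others 530 to 789). Also in DMSO 1, miR-218-5p was low at 1122 CPM (others 1702 to 1783) and miR-92a-3p was low at 3206 CPM (others 4227 to 4410). The miR-17 to miR-92a list, which contains miR-92a-3p, was low there at 0.4998% of counts (others 0.710 to 0.734%). The log2 ratio of 5p over 3p in DMSO 1 was 5.21 for miR-218 (others 5.99 to 6.06). For miR-328 it was -10.34 in DMSO 1 (others -11.20 to -11.14), a ratio whose 5p arm is set to 3 counts and which therefore moves with depth. The other 3 were miR-181a-5p, high in DMSO 4 at 118791 CPM (others 100687 to 103462), let-7f-5p, high in DMSO 2 at 59839 CPM (others 47296 to 49216), and miR-210-3p, high in DMSO 3 at 238 CPM (others 43.8 to 65.0).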

How the results depend on the processing

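Of 877 values computed under alternatives for 123 results, 864 kept their direction and stayed within the limits set for their kind, 9 moved and 4 changed sign. For a share of counts the limit was the SD over the 4 libraries. Leaving out 1 library cannot shift the mean share of a fixed set that far. Those alternatives could not count as moved, so the 864 is no measure of robustness for them. The number of expressed miRNAs was 775 with a minimum of 1 count and 292 with 100 counts. The 10 leading families summed to 71.5% with unmatched members placed by name, an alternative chosen after seeing the data. The number of hairpins with 3p higher was 103 with a summed count of at least 100, where 215 hairpins were tested and 5p was higher for 100. Leaving out 1 library at a time gave a median CV of 10.7 to 18.0% and a biological coefficient of variation of 0.165 to 0.294, both lowest without DMSO 1. It gave a log2 arm ratio of -0.081 to 0.227 for miR-324 and -0.043 to 0.205 for miR-129, neither called. Across the arm alternatives, limma and DESeq2 included, 0 calls turned to the opposite arm. No paired analysis was possible because only 1 group was described, so no 2 groups could be paired. The arm test compares the arms within each library by design. At this depth a miRNA at 0 in a library may be present below 3 counts, and the ratio of a hairpin with such an arm is understated. Miscounting between near-identical members was not tested.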
